A study of Homo sapiens with 5 samples.

Results

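The genes described here are the machinery that a short hairpin RNA (shRNA) uses to silence its target, namely DROSHA, DGCR8, XPO5, DICER1, TARBP2, PRKRA, AGO1, AGO2, AGO3 and AGO4. They were chosen by name, and for each gene the probe set with a single annotated symbol and the highest mean over the arrays was taken. All 10 were measured, of 18417 genes in all, and each had 1 probe set. RNA of Nalm6 clones was read on Affymetrix arrays, 1 per clone. Nalm6 is a cell line established from acute lymphoblastic leukaemia of early B cells. In 3 clones the shRNA was directed against MondoA, a glucose-responsive transcription factor encoded by MLXIP, and in 2 control clones it was a nonsense sequence. All clones were cultured alike, with 200 mg/dl glucose and 20% serum. By the labels every clone thus carried an shRNA, whose level was not measured, and no group without one was compared, so a response of these genes to hairpin expression as such lies outside the comparison. Each clone is also a single line, and a difference between clones and a difference between hairpins can be separated only as far as 3 clones against 2 allow.

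MicroRNAs (miRNAs) are made in steps. The nuclease Drosha, held by its partner DGCR8, cuts a hairpin out of a long primary transcript, exportin 5 (XPO5) carries it out of the nucleus, and Dicer (DICER1), which binds TRBP (TARBP2) or PACT (PRKRA), cuts off the loop. 1 strand of the resulting duplex is then held by an Argonaute protein, which pairs it with messenger RNAs through its seed. An shRNA enters this route at the Drosha step if it is embedded in a miRNA backbone and at the exportin step if it is transcribed as a bare hairpin. The labels do not say which kind was used.

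Hairpins and miRNAs that these enzymes cut are shown first, because 2 of the genes below are tied to some of them. The other miRNAs printed lie in host genes described below, which include those with the highest (EVL) and lowest (DLEU2) difference of their list. The DGCR8 transcript itself holds hairpins that Drosha and DGCR8 can cut, and DICER1 is a reported target of miR-103 and miR-107, which lie within the pantothenate kinase genes. Sequences are from RefSeq (GRCh38.p14), written 5′ to 3′. In the 2 hairpins, capitals mark the mature arms listed in RefSeq, and in mature miRNAs they mark the seed, bases 2 to 8. The MIR3618 hairpin lies within DGCR8 at chr22:20085746-20085833 on the plus strand, and the MIR103A1 hairpin within PANK3 at chr5:168560896-168560973 on the minus strand.
MIR3618 hairpin: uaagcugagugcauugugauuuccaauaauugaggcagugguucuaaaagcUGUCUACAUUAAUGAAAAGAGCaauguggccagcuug
MIR103A1 hairpin: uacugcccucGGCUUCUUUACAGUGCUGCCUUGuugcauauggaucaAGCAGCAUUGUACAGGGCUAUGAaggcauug
hsa-miR-1306-5p (within DGCR8): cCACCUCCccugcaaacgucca
hsa-miR-103a-3p (within PANK2 and PANK3): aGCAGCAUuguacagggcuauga
hsa-miR-107 (within PANK1): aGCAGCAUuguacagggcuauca
hsa-miR-15a-5p (within DLEU2): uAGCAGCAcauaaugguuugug
hsa-miR-16-5p (within DLEU2 and SMC4): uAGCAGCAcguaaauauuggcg
hsa-miR-15b-5p (within SMC4): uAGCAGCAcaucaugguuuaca
hsa-miR-26a-5p (within CTDSP2): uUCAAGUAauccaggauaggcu
hsa-miR-342-3p (within EVL): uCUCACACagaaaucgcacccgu
The 2 miRNAs reported to target DICER1 share the seed GCAGCAU. The 3 miRNAs of the miR-15 and miR-16 family share the seed AGCAGCA.

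Values are the deposited RMA expression values, taken as log2, and differences are MondoA shRNA minus control shRNA, tested by limma across all 18417 genes with Benjamini-Hochberg adjustment. Means are given with the SD over n = 3 MondoA shRNA and n = 2 control arrays. As a check of the label, MLXIP read 6.42, 6.47 and 6.29 in MondoA shRNA arrays 1, 2 and 3, against 6.42 in each control array. Its messenger RNA thus showed no detectable reduction (difference -0.03, 95% interval from -0.21 to 0.16). MondoA shRNA array 1 and both control arrays had exactly the same value, which can narrow this interval. Of the further label checks, TXNIP differed by -0.10 (95% interval from -0.33 to 0.13) and ARRDC4 by -0.08 (from -0.22 to 0.06). The clones are therefore called by their label throughout. The markers of the labelled cell type were present, with 10 of 10 measured B-precursor markers above the median gene level of 4.15, against 2 of 8 T and natural killer, 1 of 8 myeloid, 1 of 4 erythroid and 1 of 6 fibroblast markers. The mean level of the B-precursor markers lay between 8.39 and 8.63 in MondoA shRNA arrays and between 8.41 and 8.44 in control arrays. In a mass of cells, fewer cells of a type and less RNA per cell cannot be told apart.

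No gene of the machinery differed detectably between the groups. Of the 10, 5 read higher and 5 lower in MondoA shRNA clones, with a median difference of -0.01, against a median of 0.00 over all genes. Among those read as higher, AGO3 (0.002) lay below 0 when the arrays were centred and DROSHA (0.007) when they were quantile normalised again. By limma 0 of 10 passed an adjusted p of 0.05, where the background was 0% of all genes higher and 0% lower. At an unadjusted p of 0.05, 0 of 10 passed, where the background was 3.73% of all genes, 1.55% higher and 2.18% lower. The lowest unadjusted p among the 10 was 0.176 and the lowest adjusted p was 0.833. The groups were separated, with every MondoA shRNA array above both control arrays, for 1 of the 10 genes (PRKRA), against 4.85% of all genes. The opposite separation was seen for 0 of 10, against 5.18% of all genes. With an array left out, separation in either direction was more common over all genes: it was seen for 3 of the 10 without MondoA shRNA array 2, against 19.1% of all genes and 28.2% of those above the median level, and for 5 of the 10 without control array 2, against 31.2% and 36.4%. For 6 genes the 95% interval of the difference lay within 1.5-fold in either direction, and for 4 (DROSHA, TARBP2, PRKRA and AGO4) it reached beyond that. In DGCR8, AGO1 and AGO3 both control arrays and a MondoA shRNA array had exactly the same value. Such shared values can narrow an interval, so its width there is not a measure of how alike the clones were.

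**Figure D1:**
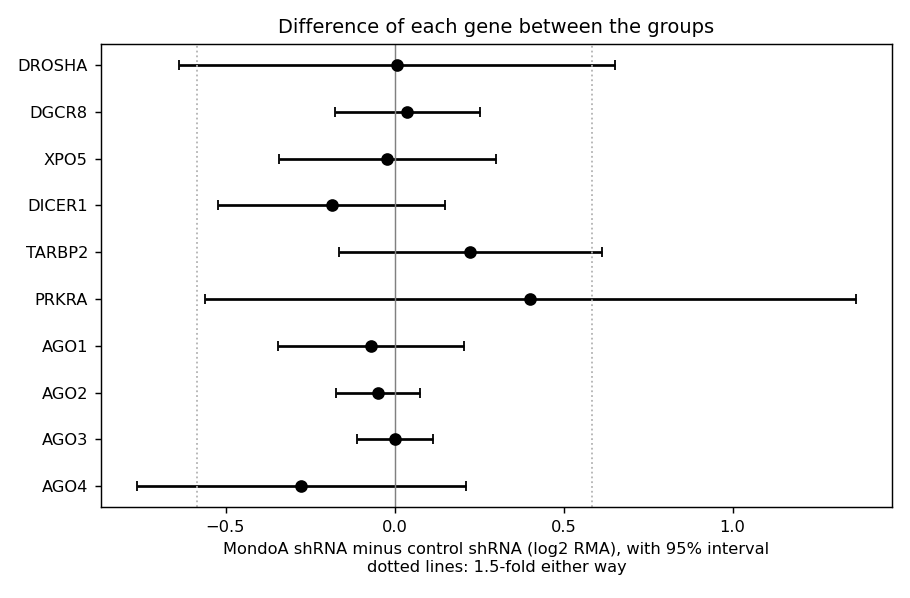
Difference between MondoA shRNA and control shRNA clones (log2, points) with the 95% interval from limma (lines) for the 10 genes, and dotted lines at 1.5-fold either way. Every interval includes 0, the narrowest is that of AGO3 (-0.11 to 0.11) and the widest that of PRKRA (-0.56 to 1.37). Values shared exactly between arrays, as in AGO3, can narrow an interval.

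DROSHA, the nuclease that starts processing, varied among the MondoA shRNA clones but not on average between the groups. It read 6.26, 6.90 and 6.51 in MondoA shRNA arrays 1, 2 and 3, against 6.56 and 6.54 in control arrays 1 and 2. Both control arrays lay inside the span of the MondoA shRNA arrays, whose lowest and highest values were 0.64 apart, while the control arrays were 0.02 apart. The group means were 6.55 ± 0.32 in MondoA shRNA and 6.55 ± 0.01 in control clones, a difference of 0.007 (95% interval from -0.64 to 0.65). A gap between MondoA shRNA arrays 2 and 1 at least as large as that of DROSHA was seen in 5.99% of genes above the median level. On chromosome 5 the nearest such gene on each side differed between the same 2 arrays by -0.05 (BASP1) and 0.55 (C5orf22), a look at neighbours made after the values were seen.

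DGCR8, the RNA-binding partner of Drosha, was nearly level. It read 6.54, 6.59 and 6.75 in MondoA shRNA arrays, against 6.59 in both control arrays. MondoA shRNA array 3 was the highest of the 5, and array 2 had the same value as the controls. The difference was 0.04 (95% interval from -0.18 to 0.25, adjusted p = 0.915 by limma). XPO5, the export receptor for hairpin precursors, read 7.25, 7.40 and 7.56 in MondoA shRNA arrays, against 7.48 and 7.37 in control arrays. The control values again fell inside the span of the MondoA shRNA clones, and the difference was -0.02 (95% interval from -0.34 to 0.30).

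DICER1 and its partners were, with AGO4, the genes with the larger differences, none of which passed the test. DICER1 read 6.68, 6.89 and 6.89 in MondoA shRNA arrays, against 7.12 and 6.89 in control arrays. Control array 1 was the highest and MondoA shRNA array 1 the lowest, and the 3 other arrays lay together. The means were 6.82 ± 0.12 in MondoA shRNA and 7.01 ± 0.17 in control clones, a difference of -0.19 (95% interval from -0.52 to 0.15, adjusted p = 0.833 by limma). The difference was -0.12 without MondoA shRNA array 1, -0.07 without control array 1 and -0.30 without control array 2.

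TARBP2, which encodes the double-stranded RNA-binding protein TRBP, read 4.97, 5.15 and 4.97 in MondoA shRNA arrays, against 4.64 and 4.97 in control arrays. The groups shared the value 4.97, and control array 1 was the lowest of the 5. The difference was 0.22 (95% interval from -0.16 to 0.61) and it was 0.06 without control array 1 and 0.39 without control array 2.

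PRKRA, which encodes PACT, a partner of Dicer that also activates the kinase PKR, had the largest difference of the 10. It read 7.98, 8.78 and 7.94 in MondoA shRNA arrays, against 7.92 and 7.75 in control arrays. MondoA shRNA array 2 stood 0.80 above the next highest array, while arrays 1 and 3 lay just above control array 1. The means were 8.24 ± 0.48 in MondoA shRNA and 7.83 ± 0.12 in control clones, a difference of 0.40 (95% interval from -0.56 to 1.37, adjusted p = 0.833 by limma). Without MondoA shRNA array 2 the difference was 0.13, and with array weights it was 0.20. A gap at least this large above the other 4 arrays was seen in MondoA shRNA array 2 for 37 genes, or 0.201% of all genes. PRKRA was picked for this count as the gene of the 10 with the largest SD, and its own gap set the size. Among genes above the median level, 2.23% had a gap between MondoA shRNA arrays 2 and 1 at least as large as that of PRKRA. The nearest genes above the median level on chromosome 2 had no gap as large as that of PRKRA in MondoA shRNA array 2. There AGPS read 7.79 and PLEKHA3 4.81, against 7.51 to 7.90 and 4.52 to 4.79 in the other arrays. Of the next such gene on each side, NFE2L2 read 6.75, against 6.18 to 6.50, and TTN read 5.82, against 5.77 to 6.79. These neighbours were looked at after the values were seen, and a cause was not tested. RefSeq lists a pseudogene of PRKRA (PRKRAP1, chromosome 6), and whether its RNA reached the probe set was not tested.

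The 3 genes whose values across the 5 arrays were most like those of PRKRA, by the smallest root-mean-square difference of mean-centred values, were CEP70, CKS1B and POLR2K (0.032, 0.032 and 0.039 log2 units). CKS1B, a subunit of cyclin-dependent kinase complexes, read 8.82, 9.63 and 8.83 in MondoA shRNA arrays, against 8.75 and 8.53 in control arrays. With 5 arrays this likeness is a description and gives no test.

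**Figure D2:**
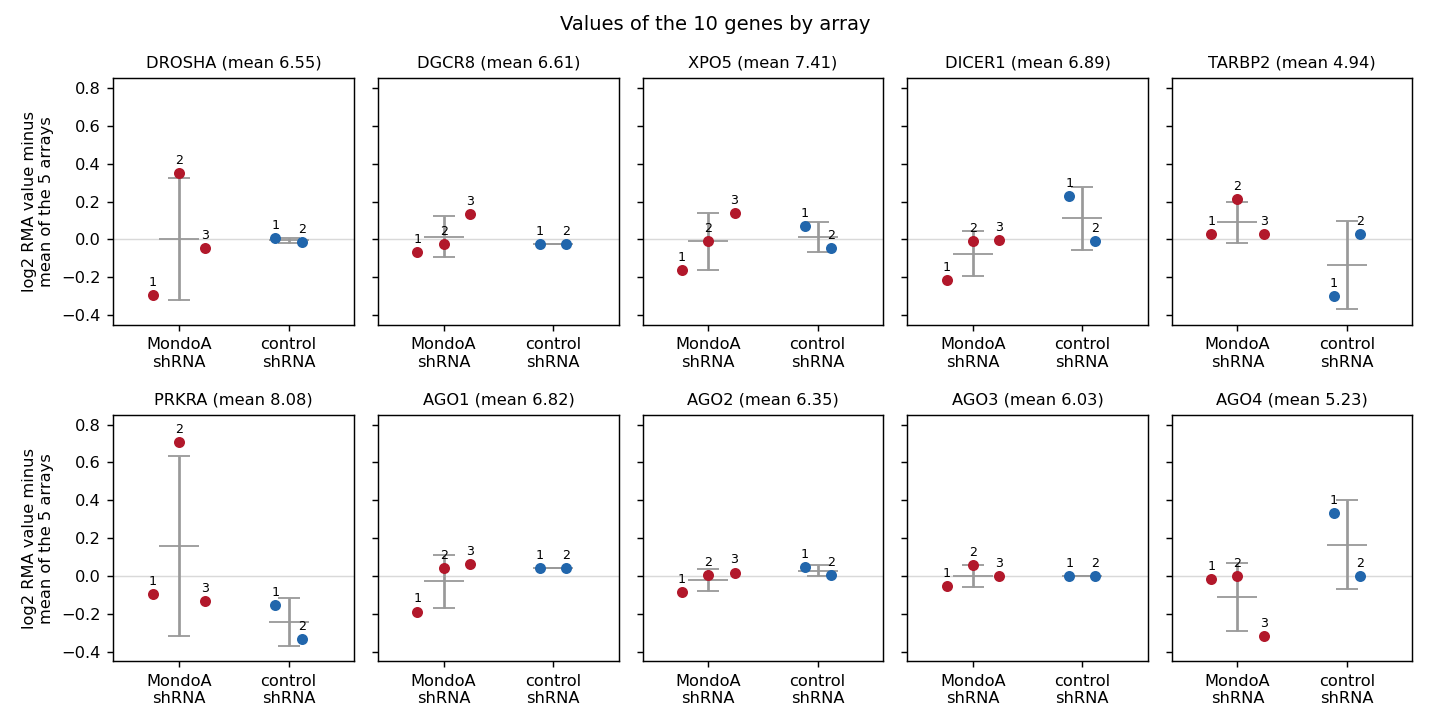
Each array's value of the 10 genes minus the gene's mean over the 5 arrays (log2 RMA, mean in the panel title), with MondoA shRNA clones left of control clones, array numbers beside the points, and group mean and SD in grey. MondoA shRNA array 2 stands apart in PRKRA (8.78 against 7.98 or less), and MondoA shRNA array 1 is the lowest point for 7 of the 10 genes.

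The Argonautes bind the finished guide strand. AGO2 is the main slicing enzyme among them in mammals and cuts targets that pair fully with an shRNA strand. It read 6.26, 6.36 and 6.37 in MondoA shRNA arrays, against 6.40 and 6.36 in control arrays. The 2 groups overlapped, and MondoA shRNA array 1 was the lowest by 0.09. The difference was -0.05 with a 95% interval from -0.17 to 0.08, or 0.967-fold with an interval from 0.887-fold to 1.05-fold. It was -0.015 without MondoA shRNA array 1, -0.028 without control array 1 and -0.024 with array weights.

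AGO1, AGO3 and AGO4 are neighbours on chromosome 1 and silence mostly without slicing. AGO1 read 6.64, 6.86 and 6.88 in MondoA shRNA arrays, against 6.86 in both control arrays, a difference of -0.07 (95% interval from -0.35 to 0.21). AGO3 read 5.97, 6.08 and 6.02 in MondoA shRNA arrays, against 6.02 in both control arrays. Its difference of 0.002 had the narrowest interval of the list (from -0.11 to 0.11, or 0.926-fold to 1.08-fold), with exactly the same value in 3 arrays. AGO4 was the gene with the lowest difference. It read 5.22, 5.23 and 4.92 in MondoA shRNA arrays, against 5.57 and 5.23 in control arrays. Control array 1 was the highest, MondoA shRNA array 3 the lowest, and the other 3 lay together at 5.22 to 5.23. The means were 5.12 ± 0.18 in MondoA shRNA and 5.40 ± 0.23 in control clones, a difference of -0.28 (95% interval from -0.76 to 0.21, adjusted p = 0.833 by limma), which was -0.17 without MondoA shRNA array 3, -0.11 without control array 1, -0.44 without control array 2 and -0.41 with array weights. None of the 3 neighbours passed the test.

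The machinery was about as variable as other expressed genes, with a median SD over the 5 arrays of 0.14 against 0.13 for the 9208 genes above the median level. AGO3 had the lowest SD (0.04, exceeded or equalled by 86.6% of those genes), followed by AGO2 (0.05, 82.5%). PRKRA had the highest (0.41, reached by 2.88%), followed by AGO4 and DROSHA (0.23 each, reached by 18.5% and 18.7%). The MondoA shRNA clones spanned a wider range than the control clones for 7 of the 10 genes, compared with 76.8% of genes above the median level. Since 3 arrays tend to span more than 2, that share is not a measure of spread per clone.

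The lowest values of the machinery lay mostly in 1 array, though by sizes that other genes also showed. In it the 10 genes deviated from their 5-array medians by -0.28 to 0.04. For genes above the median level the 5th to 95th percentile there was -0.38 to 0.18. MondoA shRNA array 1 was strictly the lowest of the 5 for 7 of 10 genes (DICER1, DROSHA, DGCR8, XPO5, AGO1, AGO2 and AGO3), against 22.2% of all genes and 35.3% of genes above the median level. MondoA shRNA array 2 was strictly the highest for 4 (DROSHA, AGO3, TARBP2 and PRKRA), against 23.6% of all genes and 36.8% of those above the median level, so that this count was near the background. Array 1 was the highest for 0 and array 2 the lowest for 0 of the 10, against 17.1% and 16.9% of all genes, and 10.9% and 14.3% of those above the median level. Values in array 2 were above those in array 1 by a median of 0.10 over genes above the median level. What set these 2 arrays apart was not tested. For 7 of the 10 genes at least 2 arrays had exactly the same deposited value, as for 62.3% of genes above the median level, so small differences in these data are coarse.

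**Figure D3:**
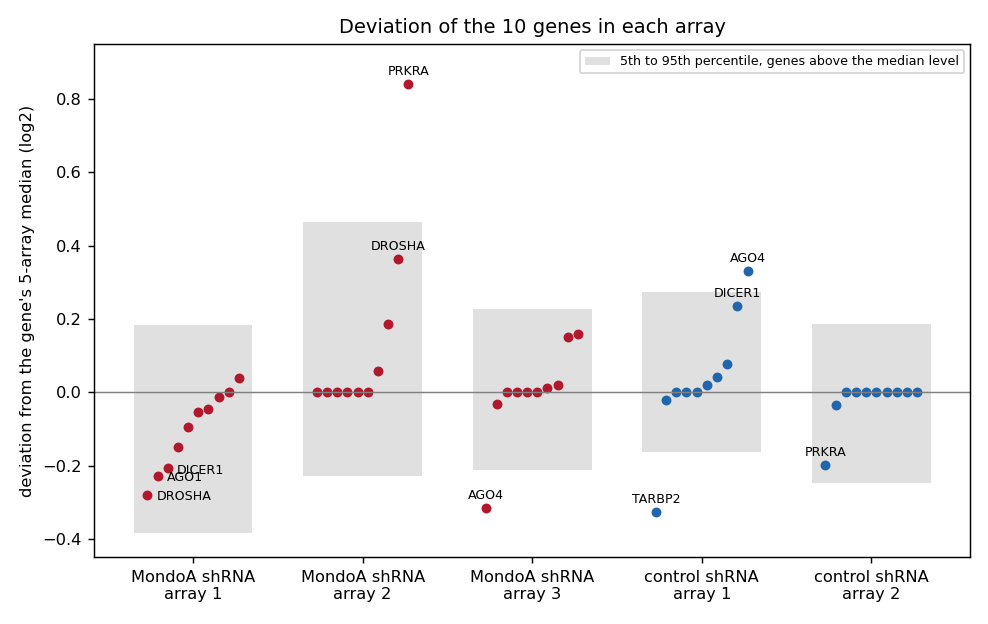
Deviation of the 10 genes (points) from their own 5-array median in each array (log2), with grey bands for the 5th to 95th percentile of all genes above the median level. In MondoA shRNA array 1 the points run from -0.28 to 0.04, inside the band from -0.38 to 0.18. In MondoA shRNA array 2 they run from 0.00 to 0.84, where PRKRA lies above the band that ends at 0.47.

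The rest of the small RNA pathway was described from 8 lists with 132 different measured genes. None passed an adjusted p of 0.05 in limma. At an unadjusted p of 0.05, 2 were higher and 4 lower, or 4.55% against 3.73% of all genes. Most pathway genes lay above the median level, however. In a limma fit of the 9208 genes above that level alone, 595 had an unadjusted p under 0.05, of which 6 were pathway genes. The share of pathway genes in that fit was not computed. The 4.55% against 3.73% is therefore not a comparison of genes at a like level. The count of 6 was 8 without MondoA shRNA array 1 (6.06%, against 3.84% of all genes and 6.07% of those above the median level). It was 2 without MondoA shRNA array 2 (1.52%, against 5.53% and 8.68%) and 3 without MondoA shRNA array 3 (2.27%, against 3.18% and 4.9%). After adjustment, 0 passed in each of these fits. Among helpers of Drosha and of cap binding (14 measured, median difference -0.01), METTL3, the writer of N6-methyladenosine that marks primary miRNAs, was the lowest. It read 7.20, 7.04 and 7.29 in MondoA shRNA arrays, against 7.64 and 7.43 in control arrays, a difference of -0.36 (unadjusted p = 0.0393, adjusted p = 0.833 by limma). KHSRP, a binder of hairpin loops, was the highest of that list at 0.16.

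Among transport factors (7 measured, median 0.09), RAN, the GTPase that loads exportin 5, read 10.30, 10.50 and 10.40 in MondoA shRNA arrays, against 10.21 and 10.15 in control arrays. All MondoA shRNA arrays lay above both control arrays, with a difference of 0.22 (unadjusted p = 0.0468, adjusted p = 0.833 by limma). The tRNA exportin gene XPOT was the lowest at -0.18. The chaperones and other factors of Argonaute loading and turnover (14 measured, median 0.04) ran from -0.22 (P4HA1, a prolyl hydroxylase subunit reported to stabilise AGO2) to 0.12 (DNAJB1, a co-chaperone). Of these, 0 had an unadjusted p under 0.05 in limma, against 3.73% of all genes.

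Silencing effectors and decay enzymes (34 measured, median -0.02) held 2 genes at an unadjusted p under 0.05 by limma, both lower. The background was 3.73% of all genes in either direction and 2.18% lower. MOV10, an Argonaute-associated helicase, read 7.47, 7.55 and 7.41 in MondoA shRNA arrays, against 7.73 and 7.65 in control arrays, a difference of -0.21 (unadjusted p = 0.0210, adjusted p = 0.833 by limma). BTG1, a binder of the deadenylase complex, differed by -0.31 and was the lowest of the list. The deadenylase gene CNOT7 was the highest at 0.37, and, as for PRKRA, its highest value was in MondoA shRNA array 2 (8.96, 9.58 and 9.11 in MondoA shRNA arrays, against 8.94 and 8.75 in control arrays). The scaffold proteins that link Argonautes to deadenylation, shown for their role and not by their values, differed by -0.11 (TNRC6A), 0.00 (TNRC6B) and -0.06 (TNRC6C).

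Tailing and trimming genes (17 measured, median 0.05) ran from -0.15 (TUT1, a terminal uridylyltransferase) to 0.17 (TUT4, a uridylyltransferase of precursor miRNAs). An unadjusted p under 0.05 in limma was reached by 0 of them, against 3.73% of all genes. The PIWI genes of the germ line and their partners (8 measured) were all below the median gene level, and ran from -0.05 (TDRD9) to 0.01 (DDX4). Among binders and sensors of double-stranded RNA (15 measured, median 0.004), TLR3, the endosomal sensor, was the highest. It read 4.33, 4.59 and 4.61 in MondoA shRNA arrays, against 4.12 and 4.09 in control arrays, so that the control level was below the median gene. The difference was 0.40 (unadjusted p = 0.0232, adjusted p = 0.833 by limma). OAS1, an interferon-induced synthetase, was the lowest at -0.24. EIF2AK2, which encodes PKR, the kinase that PACT activates, read 7.44, 7.87 and 7.70 in MondoA shRNA arrays, against 7.81 and 7.69 in control arrays, a difference of -0.07, and was named for that link.

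**Figure D4:**
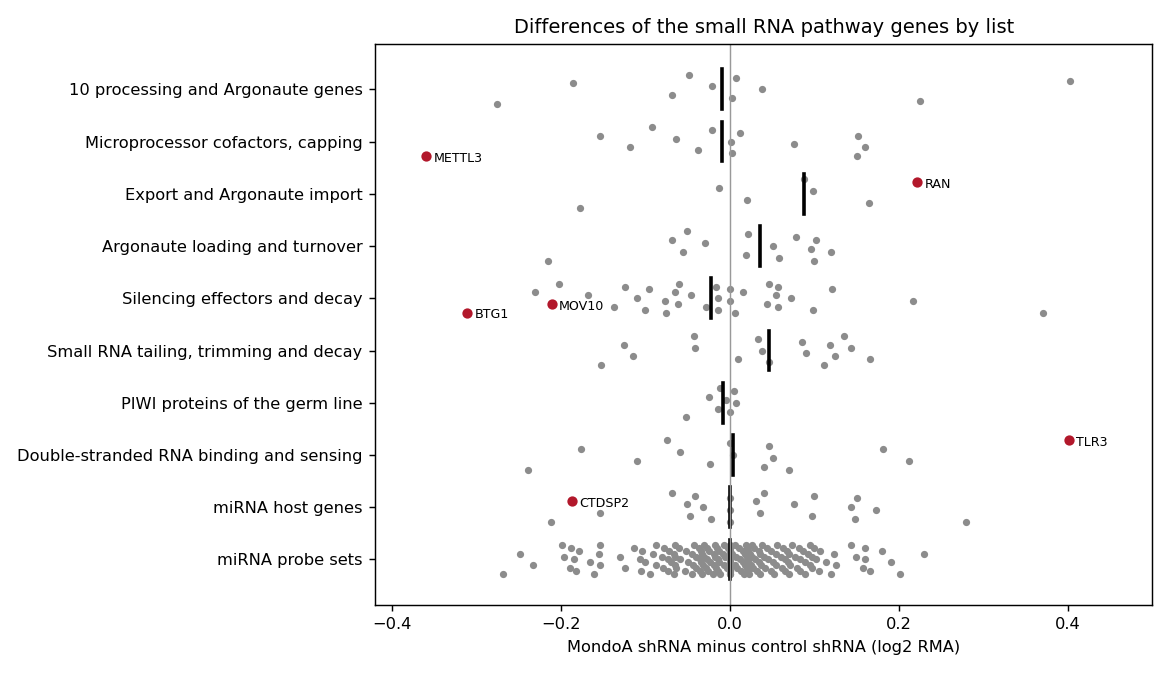
Difference between MondoA shRNA and control shRNA clones (log2) for each measured gene of the 10 and of the other lists, with the list's median as a black bar. Red points with names have an unadjusted p under 0.05, which was the case for METTL3, RAN, BTG1, MOV10, TLR3 and CTDSP2, and no gene passed after adjustment.

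No gene that carries a miRNA printed above passed the adjusted threshold. In the list of 23 measured host genes the median difference was 0.00. The PANK genes, named because they hold miR-103a and miR-107, differed by 0.00 (PANK1), -0.05 (PANK2) and -0.03 (PANK3). CTDSP2, a phosphatase gene that holds miR-26a, read 7.78, 7.78 and 7.64 in MondoA shRNA arrays, against 7.89 and 7.96 in control arrays. All 3 lay below both control arrays, with a difference of -0.19 (unadjusted p = 0.0389, adjusted p = 0.833 by limma). EVL, an actin regulator gene that holds miR-342, was the highest of the list at 0.28. DLEU2, the non-coding host of miR-15a and miR-16, was the lowest at -0.21, with a wide interval from -1.06 to 0.64. SMC4, a condensin gene that holds miR-15b, differed by -0.02.

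Probe sets with the symbol of a miRNA, or of a host transcript named for one, numbered 189, of which 19 lay above the median gene level. Some, such as MIR17HG, were also in the list of host genes. Where their probes lie was not examined, and their values were not taken as measures of the mature miRNA. Their median difference was 0.00, with 89 above 0 and 84 below, and 0 had an unadjusted p under 0.05 in limma, against 3.73% of all genes. They ran from -0.27 (MIR15B) to 0.23 (MIR34B), with both of these genes below the median gene level in all arrays.

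Promoter windows were searched because MondoA binds DNA with MLX at pairs of E-boxes. Only single matches were searched for, not pairs or their spacing. RefSeq windows of 300 bases around the start site, most of them upstream, were listed for 9 of the 10 genes, 17 windows in all. The E-box CACGTG, the same on both strands, was found in 0 of these 17 windows, against 7.26% of all 35116 windows. The variant CACGCG, or CGCGTG on the other strand, was found in 1 or more windows of 5 of the 9 genes (AGO4, DGCR8, PRKRA, TARBP2 and XPO5), in 5 of 17 windows, against 11.4% of all windows. Windows of 1 gene can overlap, and no set of windows with a like share of G and C was compared. The windows of the genes with the highest and the lowest difference are printed with the variant in capitals, for PRKRA the first of its windows at chr2:178451126-178451425 on the minus strand, and for AGO4 the window at chr1:35807766-35808065 on the plus strand.
PRKRA promoter window: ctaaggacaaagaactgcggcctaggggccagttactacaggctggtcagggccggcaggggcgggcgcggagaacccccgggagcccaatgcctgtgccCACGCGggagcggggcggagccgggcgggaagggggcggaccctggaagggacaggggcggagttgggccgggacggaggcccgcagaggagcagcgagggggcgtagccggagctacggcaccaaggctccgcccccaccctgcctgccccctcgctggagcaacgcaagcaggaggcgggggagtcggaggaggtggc
AGO4 promoter window: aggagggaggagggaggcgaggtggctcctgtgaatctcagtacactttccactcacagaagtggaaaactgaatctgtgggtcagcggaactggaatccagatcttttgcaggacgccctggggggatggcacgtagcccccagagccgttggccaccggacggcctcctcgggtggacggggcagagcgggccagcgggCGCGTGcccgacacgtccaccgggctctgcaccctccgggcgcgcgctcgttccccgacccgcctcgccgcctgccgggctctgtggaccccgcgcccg
The other 2 windows of PRKRA held no match of the variant. Each printed window held it 1 time, and their share of G and C was 73.7% in the PRKRA window and 69.0% in the AGO4 window. A match of letters is a description and shows no binding.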

How the data were processed

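The deposited values are log2 expression per probe set, which the authors made with RMA in Affymetrix Expression Console 1.1, per the submitters' processing notes. RMA corrects background, makes array distributions equal and summarises probes by median polish. Neither the logarithm's base nor a genome build is given in the sources used here, and the base was taken as 2. Symbols came from the platform annotation (19460 of 33297 probe sets with exactly 1) and were updated through Entrez numbers in RefSeq (19429 matched), and 18417 genes were kept with 1 probe set each. Detection calls and probe intensities were not used here, so detection was not assessed, and the number of arrays limits the precision.

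Genes were compared with limma 3.58.1 in R 4.3.3 (linear model, empirical Bayes, two-sided, Benjamini-Hochberg over all genes). Nothing in the labels says that clones came from separate transductions, so p-values measure the spread between these clones. The genes and lists were chosen with earlier results of these data known. Named outside the 10 were the highest and lowest gene of each list, genes at unadjusted p under 0.05 with separated groups (at most 4 a list), and others where marked. Clone numbers shared between groups mark no common origin and were not used as pairs. In 10 simulations on the means and spreads of the 18417 genes, limma called 56.9% of changes of 1 log2 unit and 37.3% of changes of 0.5 at an adjusted p of 0.05. At an unadjusted p under 0.05 stood 6.06% of unchanged genes. Each gene kept its own spread, drawn independently of the other genes, and 76.6% of all genes had a value shared by at least 2 arrays. The rates therefore do not say how often a change in 1 of the 10 genes would be called.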

Additional observations from a re-analysis of the deposited data

How the results depend on the processing

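Across 14 alternatives and the 10 genes, 0 of 140 values passed the adjusted threshold. A sign changed in 13 of them, in DROSHA, DGCR8, XPO5, AGO1 and AGO3, whose differences were small. No sign could change with brighter genes alone, a trended robust prior, no moderation, or averaged or all probe sets. Those fits leave the differences of the 10 genes as reported, so 140 overstates how many values could change sign. With the replicate number as a block, DGCR8 was -0.022 and the median of the 10 genes -0.045, against -0.01 as reported. The differences of that fit equal those without MondoA shRNA array 3, but its p-values do not. DROSHA was -0.0012 with the arrays quantile normalised again and -0.033 with array weights, AGO3 -0.004 with the arrays centred and -0.0007 with array weights, and XPO5 0.076 with array weights. With 1 array left out, DROSHA ran from -0.17 to 0.16, DGCR8 from -0.022 to 0.080, XPO5 from -0.097 to 0.054, AGO1 from -0.11 to 0.010 and AGO3 from -0.026 to 0.029, the median of the 10 from -0.045 to 0.042, and the number of separated genes from 1 to 5, where 13.7% to 32.9% of all genes were separated with 1 array left out.

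The count of all genes past the adjusted threshold, 0, was 2 with quantile normalisation, 2 with centring, 3 without moderation and 0 to 752 with 1 array left out (752 without control array 1, 454 without control array 2), where the spread of a lone control is taken from the other clones. At an unadjusted p under 0.05, 687 genes became 1052 with quantile normalisation, 1263 with array weights and 586 to 1987 with 1 array left out. Of the 132 pathway genes, 0 passed as reported and 0 to 4 with 1 array left out. Pathway genes passed only where a lone control array was left, whose spread is taken from the other clones. No comparison of pathway genes with a background is drawn from those fits. The 6 at an unadjusted p under 0.05 became 3 with the replicate block, 13 with quantile normalisation, 12 with array weights, 2 without moderation and 2 to 9 with 1 array left out. The causes were not tested.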
